A study of Mus musculus with 12 samples.

Results

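Bank1, Synpo, Hopx, Grap, Tctex1d1 and Sdc1 encode scaffold, adaptor, cytoskeletal and cell surface proteins, and they are described as one set because their counts were higher in bone marrow cells of Cbfb-MYH11 mice than in those of wild-type mice. They are 6 of the 25078 genes in the deposited tables, and all 6 were among the 14599 genes with enough counts to be tested. The values that chose them are the same libraries' levels in the comparison of genotypes, so that comparison is given below as a description with no test. Tests are given for the effect of irradiation. The choice did not use that contrast, but the libraries in it are the same ones that chose the genes.

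The libraries are bulk RNA-seq of LSK cells, the Lin-Sca1+ckit+ fraction of mouse bone marrow that holds stem cells and early multipotent progenitors. CM stands for cells of preleukemic Cbfb-MYH11 mice, which carry the fusion gene of inversion 16 leukemia, and WT for cells of mice whose genotype label is WT and whose titles read control. The 4 groups are CM IR, CM NIR, WT IR and WT NIR, each with 3 libraries. IR cells were sorted, given 3.5 Gy of ionising radiation and collected 24 h later, and NIR cells were incubated alongside without it. The labels give each IR and NIR pair 1 animal number, so 6 animals gave 12 libraries. The labels do not state how the fusion was induced or the strain and age of the mice, and gene counts do not separate the fusion from the normal alleles. Total gene counts were 68.5 to 110.8 M per library.

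Cbfb-MYH11 joins most of the core binding factor beta subunit, the partner of RUNX transcription factors, to the tail of a smooth muscle myosin heavy chain. The fusion protein binds RUNX1 and disturbs the transcription of blood genes, and in mice it leads to abnormal progenitors from which leukemia can arise when further mutations are gained. Bank1 is a scaffold of B-cell receptor signalling, Grap an adaptor of the GRB2 family, Synpo an actin-organising protein, Tctex1d1 a member of a dynein light chain family, Hopx an unusual homeodomain protein that does not bind DNA, and Sdc1 the cell surface proteoglycan syndecan-1, also called CD138.

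The gate was checked first. Kit, the stem cell factor receptor, was at 148 to 284 CPM in the 12 libraries, CPM being the count scaled to the TMM-normalised library size. Ly6a, which encodes Sca-1, was at 323, 49.7 and 144 CPM in CM IR animals 1, 2 and 3 and at 306, 46.7 and 457 CPM in the same animals' NIR cells, against 42.0 to 140 CPM in the 6 WT libraries. Both sort markers were thus present in every library, and Ly6a was uneven among the CM animals. CM animal 3 also stood apart as a pair: the deviations of its IR and NIR libraries from their group means correlated across genes at 0.13, against 0.79 and 0.84 for CM animals 1 and 2 and 0.41 to 0.67 for the WT animals. Results that rest on CM animal 3 are therefore also given without its libraries.

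Bank1 (chromosome 3, 136053364 to 136326066, minus strand, mm10) showed the largest ratio between genotypes of the 6 genes. The protein links the B-cell receptor to the kinase Lyn and to inositol trisphosphate receptors, and its name comes from B cells. In irradiated cells it had 16.8, 3.93 and 7.96 CPM in CM animals 1, 2 and 3, against 0.376, 0.626 and 0.405 CPM in WT animals 1, 2 and 3. In unirradiated cells it had 15.99, 2.41 and 14.6 CPM in CM, against 0.678, 0.738 and 0.525 CPM in WT. The groups did not overlap in either condition, and the lowest CM library stood 6.28 times the highest WT library in IR and 3.27 times in NIR. The fitted log2 ratio of CM over WT was 4.35 in IR cells and 4.08 in NIR cells, a ratio of 20.3 on the linear scale in IR cells.

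Grap (chromosome 11, 61653321 to 61672777, plus strand) encodes an adaptor with SH2 and SH3 domains that couples activated tyrosine kinase receptors to RAS signalling. It had 10.6, 6.54 and 5.84 CPM in CM IR animals 1, 2 and 3, against 3.02, 1.67 and 2.50 CPM in WT IR. In NIR cells it had 10.02, 6.45 and 9.09 CPM in CM, against 1.87, 0.999 and 1.24 CPM in WT. Each CM library was above each WT library, and the CM animals lay closer together for this gene than for Bank1. The fitted CM over WT ratio was 3.20 in IR cells, where WT levels were higher than in NIR cells, and 6.22 in NIR cells.

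Sdc1 (chromosome 12, 8771396 to 8793687, plus strand) carries heparan sulfate chains and is best known as a surface marker of plasma cells and epithelia. It had 38.1, 32.4 and 18.3 CPM in CM IR animals 1, 2 and 3, against 5.15, 8.43 and 5.31 CPM in WT IR. In NIR cells it had 36.04, 29.9 and 31.5 CPM in CM, against 3.46, 10.1 and 6.83 CPM in WT. The 3 CM NIR animals were nearly level, with an SD of log2 CPM of 0.14 in CM NIR and 0.78 in WT NIR (n = 3 each). The CM over WT ratio was 4.70 in IR cells and 4.78 in NIR cells.

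Hopx (chromosome 5, 77086986 to 77115123, minus strand) encodes a small protein that binds serum response factor and histone deacetylase complexes and is expressed in several stem cell compartments. In IR cells it had 22.3, 8.23 and 13.5 CPM in CM animals 1, 2 and 3, against 2.29, 4.28 and 2.86 CPM in WT. In NIR cells it had 21.2, 5.70 and 25.2 CPM in CM, against 2.87, 2.84 and 2.13 CPM in WT. CM animal 2 was low in both conditions, and the lowest CM library was 1.92 times the highest WT library in IR and 1.99 times in NIR. The CM over WT ratio was 4.67 in IR cells and 6.65 in NIR cells.

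The CBFB partner RUNX1 binds DNA at a short core motif, so the 250 bases before the RefSeq start sites (build GRCm38.p6) were searched for TGTGGT or TGCGGT, and for the shorter core TGTGG, on both strands. RefSeq windows for 4 of the 6 genes, 5 windows in all because Hopx has a second start site, were used. The CArG box, the binding motif of serum response factor, was searched for after the sequences had been seen. The windows with a match are shown in lower case from 5′ to 3′ on the gene's strand, with the matched letters in capitals. They lie at chr5:77115124-77115373 and chr5:77095268-77095517 for Hopx and at chr12:8771146-8771395 for Sdc1.
Hopx first start: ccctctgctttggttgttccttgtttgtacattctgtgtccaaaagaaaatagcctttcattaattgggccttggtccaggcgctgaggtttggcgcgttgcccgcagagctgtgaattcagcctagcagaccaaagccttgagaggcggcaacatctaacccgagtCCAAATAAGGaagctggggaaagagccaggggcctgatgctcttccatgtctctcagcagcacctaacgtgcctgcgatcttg
Hopx second start: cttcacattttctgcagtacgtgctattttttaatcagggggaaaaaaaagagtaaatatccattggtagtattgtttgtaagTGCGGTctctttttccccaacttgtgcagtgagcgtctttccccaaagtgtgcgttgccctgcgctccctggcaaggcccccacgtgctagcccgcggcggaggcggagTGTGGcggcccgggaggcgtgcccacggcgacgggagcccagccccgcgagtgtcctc
Sdc1: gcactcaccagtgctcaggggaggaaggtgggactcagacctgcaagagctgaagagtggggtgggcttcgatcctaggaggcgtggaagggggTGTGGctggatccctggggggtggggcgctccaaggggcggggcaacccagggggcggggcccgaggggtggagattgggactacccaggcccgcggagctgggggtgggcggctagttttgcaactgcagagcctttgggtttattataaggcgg

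The first Hopx window held a CArG box, CCAAATAAGG, from 83 to 74 bases before the start. The second Hopx window held TGCGGT from 167 to 162 bases and TGTGG from 58 to 54 bases before its start. The Sdc1 window held TGTGG from 156 to 152 bases before the start. The windows of Bank1 and Tctex1d1 held none of these letters. Synpo and Grap were left out of the search, so the counts given here do not cover them. Their absence is a limit of the search and not a sign that they lack a start site or a motif. Among the 32851 RefSeq promoter windows of mouse genes cut to the same length, 18.6% held TGTGGT or TGCGGT, 49.3% held TGTGG, which every TGTGGT contains, and 1.47% held a CArG box. TGTGGT or TGCGGT was in 1 of the 5 windows, TGTGG in 2 and a CArG box in 1. For TGTGGT or TGCGGT and for TGTGG, these counts do not set the windows apart from all promoters. The CArG box was looked for only after the sequences had been seen. A match in these letters is a description of the sequence and not a measured binding site.

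Synpo (chromosome 18, 60593990 to 60624305, minus strand), which organises actin in kidney podocytes and in the dendritic spines of neurons, was the lowest of the 6 genes per length. It had 8.97, 3.13 and 3.47 CPM in CM IR animals 1, 2 and 3, against 0.798, 0.722 and 0.563 CPM in WT IR. In NIR cells it had 6.85, 3.62 and 5.87 CPM in CM, against 0.678, 0.651 and 0.397 CPM in WT. Every WT library was below 1 CPM and every CM library above 3 CPM. The CM over WT ratio was 7.47 in IR cells and 9.45 in NIR cells.

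Tctex1d1 (chromosome 4, 102986379 to 103005594, plus strand) belongs to the Tctex1 family, whose better known members are light chains that attach cargo to the dynein motor. In IR cells it had 35.9, 9.81 and 19.0 CPM in CM animals 1, 2 and 3, against 2.86, 2.95 and 3.19 CPM in WT. In NIR cells it had 43.4, 7.59 and 41.7 CPM in CM, against 3.68, 3.19 and 4.06 CPM in WT. The WT animals were almost level while CM animal 2 was far below the other 2 CM animals in NIR cells. The CM over WT ratio was 7.18 in IR cells and 8.48 in NIR cells. Gm12709, an uncharacterised gene on the opposite strand, overlaps Tctex1d1 by 3377 bases, and its count was 11.4% to 15.7% of the Tctex1d1 count in CM libraries and 2.46% to 8.26% in WT libraries. The strand setting of the counting is not given in the sources used here, so reads of the pair cannot be told apart.

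**Figure D1:**
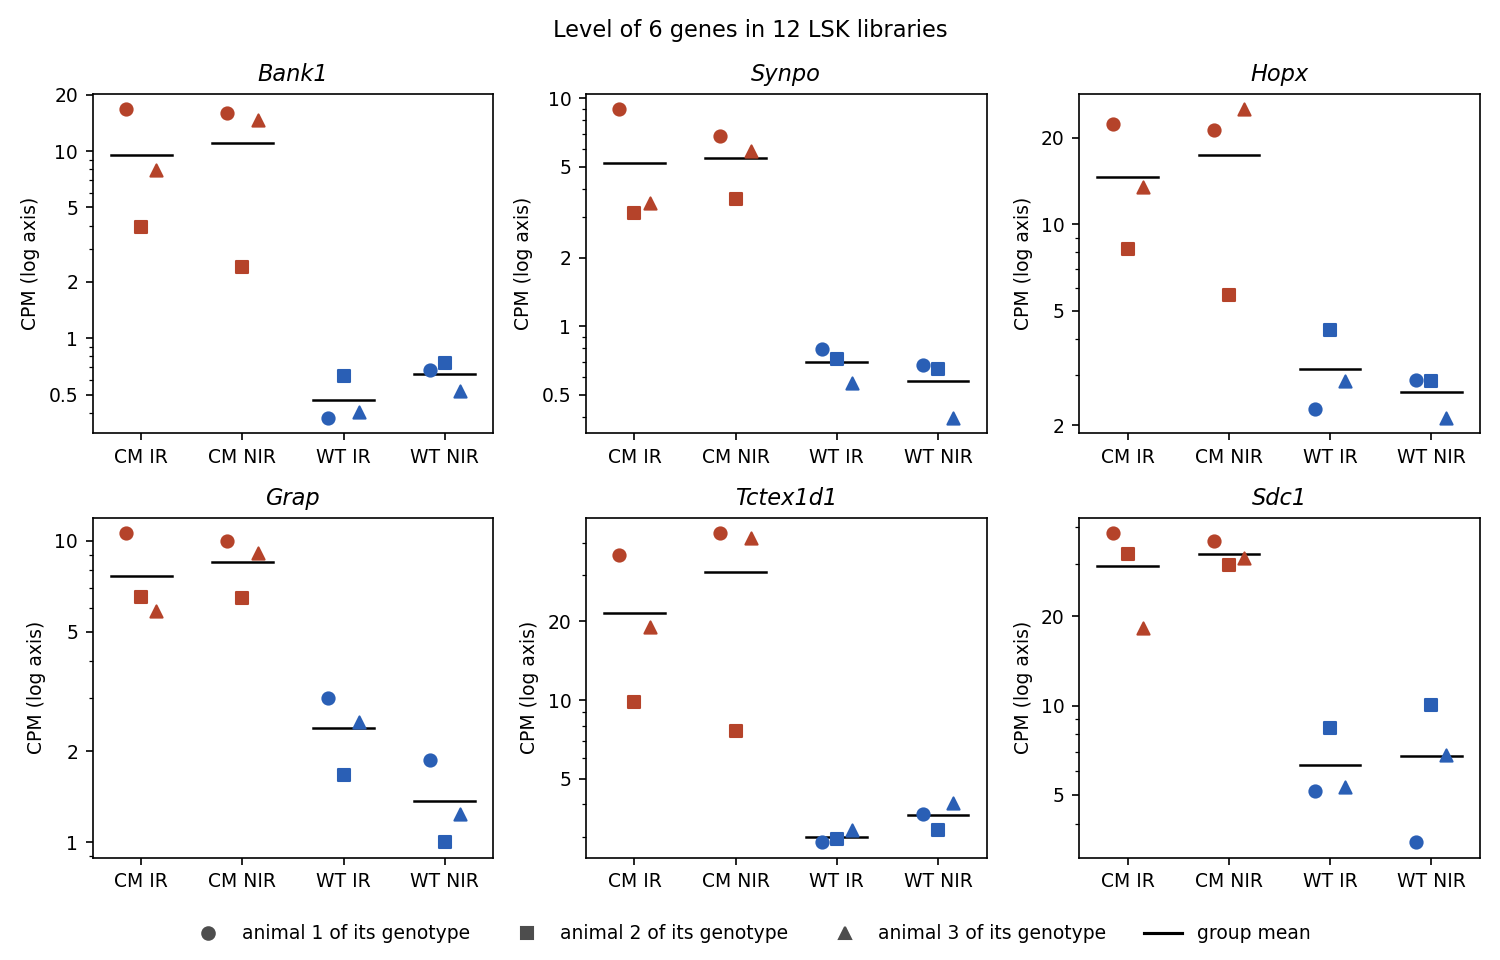
Level of each gene in CPM on a log axis, 1 panel per gene, with 1 point per library and a bar at the mean of each group (n = 3). In every panel the CM points lie above the WT points, and the CM points of Bank1, Hopx and Tctex1d1 are spread most widely.

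All 6 genes had each CM library above each WT library in IR cells, in NIR cells and over the 12 libraries together. Of all 14599 genes tested, 9.23% did so in IR cells, 8.14% in NIR cells and 3.36% over the 12 libraries, and since the genes were chosen on these values nothing is read from the count. The labels' library numbers fall into a lower series, with WT animal 1 and CM animals 1 and 2, and a higher series, with WT animals 2 and 3 and CM animal 3. Within the lower series the log2 difference of CM from WT was 1.46 (Grap) to 4.35 (Bank1) in IR cells and 1.93 (Hopx) to 3.24 (Sdc1) in NIR cells. Within the higher series it was 1.45 (Sdc1) to 3.92 (Bank1) in IR cells and 1.92 (Sdc1) to 4.50 (Bank1) in NIR cells. In bulk RNA, more cells of a type and more RNA per cell cannot be told apart.

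In RPKM, the deposited reads scaled to exon length and library size, levels can be set side by side between genes. In CM IR cells Hopx averaged 9.60 ± 4.68, Sdc1 9.59 ± 3.35 and Tctex1d1 9.41 ± 5.79 RPKM (SD, n = 3 each), which did not differ beyond their spread. Grap followed at 4.73 ± 1.60 RPKM, Bank1 at 2.89 ± 1.999 RPKM and Synpo at 0.721 ± 0.458 RPKM. In CM NIR cells Tctex1d1 averaged 13.4 ± 8.73, Hopx 11.3 ± 6.69 and Sdc1 10.4 ± 0.974 RPKM, again within their spread, ahead of Grap at 5.23 ± 1.11, Bank1 at 3.30 ± 2.24 and Synpo at 0.751 ± 0.225 RPKM. In WT NIR cells Sdc1, Hopx and Tctex1d1 lay between 1.59 and 2.19 RPKM on average, Grap at 0.845 RPKM, Bank1 at 0.195 RPKM and Synpo at 0.0797 RPKM. The WT IR means were 2.06 RPKM for Hopx, 2.04 for Sdc1, 1.48 for Grap, 1.31 for Tctex1d1, 0.142 for Bank1 and 0.0967 for Synpo. The same 3 genes thus led in CM and in WT NIR cells, while in WT IR cells Grap stood above Tctex1d1.

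The CM animals differed among themselves, and the 6 genes divided by how much. In CM NIR cells the highest animal was 6.63 times the lowest for Bank1, 5.71 times for Tctex1d1 and 4.43 times for Hopx, but 1.89 times for Synpo, 1.55 times for Grap and 1.21 times for Sdc1. The SD of log2 CPM among these 3 animals was 1.53, 1.43 and 1.17 for Bank1, Tctex1d1 and Hopx, and 0.48, 0.33 and 0.14 for Synpo, Grap and Sdc1, beside a median of 0.26 over all genes tested. In CM IR cells the highest animal was 4.27 times the lowest for Bank1, 3.66 for Tctex1d1, 2.86 for Synpo, 2.71 for Hopx, 2.08 for Sdc1 and 1.81 for Grap. Bank1 and Tctex1d1 were therefore the most variable of the 6 in both conditions.

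CM animal 2 was the lowest CM NIR library for 6 of the 6 genes, as it was for 41.8% of all genes tested and for 86 of the 131 other genes called higher in CM NIR than in WT NIR. Its NIR level was 3.73 times the WT NIR mean for Bank1, 2.182 times for Hopx and 2.08 times for Tctex1d1, against 24.7, 8.13 and 11.9 times in CM animal 1 and 22.6, 9.66 and 11.5 times in CM animal 3. For Sdc1 the 3 CM NIR animals stood at 5.31, 4.401 and 4.64 times the WT mean, and for Grap at 7.30, 4.70 and 6.63 times. CM animal 1 was the highest CM IR library for 6 of the 6 genes, as it was for 34.6% of all genes and 100 of the 131.

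**Figure D2:**
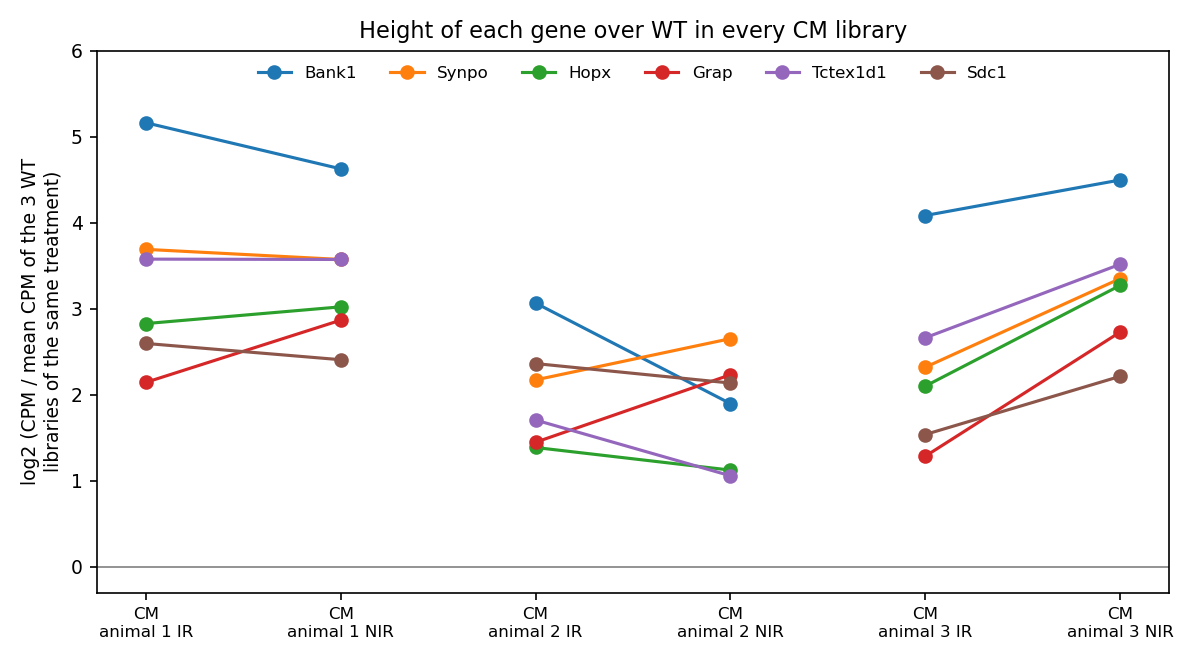
Log2 ratio of each CM library's CPM to the mean of the 3 WT libraries of the same treatment, with 1 colour per gene and a line joining the IR and NIR libraries of an animal. In NIR cells Bank1, Tctex1d1 and Hopx are lowest in CM animal 2, while Sdc1 and Grap stay within 4.401 to 7.30 times the WT mean.

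Markers of other cells also differed among the CM animals. Summed neutrophil markers were at 982, 266 and 845 CPM in CM IR animals 1, 2 and 3 and at 912, 205 and 1787 CPM in CM NIR, against 221 to 491 CPM in WT. Summed eosinophil, mast cell and basophil markers were at 1451, 328 and 966 CPM in CM IR and at 1276, 284 and 1705 CPM in CM NIR, against 354 to 754 CPM in WT. Of the 10 neutrophil genes 0 or 1 was at 0 in a library, and of the 12 eosinophil, mast cell and basophil genes 0 to 2 were. Summed monocyte and macrophage markers were at 3785, 850 and 2627 CPM in CM IR and at 3446, 614 and 3175 CPM in CM NIR, against 1162 to 3276 CPM in WT, with none of the 11 genes at 0. Summed markers of stem cells, with none of 12 at 0, ran the other way, with 99.4, 278 and 211 CPM in CM IR and 104, 350 and 104 CPM in CM NIR, against 159 to 245 CPM in WT. CM animal 2, the lowest CM NIR animal for the 6 genes, was also the lowest for 5 of the 10 neutrophil genes, 11 of the 12 eosinophil, mast cell and basophil genes and 10 of the 11 monocyte and macrophage genes, and the highest for 12 of the 12 stem cell genes. It was the lowest CM NIR library for 41.8% of all genes tested, and the share for which it was the highest was not counted.

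The neutrophil sum and the eosinophil, mast cell and basophil sum hid opposite differences among their genes. Of the 11 monocyte and macrophage genes, 9 had the higher mean in CM in each condition. Of the 10 neutrophil genes, 4 in IR and 3 in NIR cells had the higher mean in CM, led by the granule protease Mmp8 at 437 ± 286 CPM in CM IR and 80.3 ± 31.1 CPM in WT IR, and at 721 ± 668 CPM in CM NIR and 114 ± 22.1 CPM in WT NIR (SD, n = 3 each). S100a8, a calcium-binding protein abundant in neutrophils, averaged 16.2 ± 16.6 CPM in CM IR and 63.7 ± 24.2 CPM in WT IR, and 5.59 ± 2.92 CPM in CM NIR and 77.8 ± 38.1 CPM in WT NIR, and S100a9, Ngp, Ltf and Camp also had the lower mean in CM. Of the 12 eosinophil, mast cell and basophil genes, 7 in IR and 6 in NIR cells had the higher mean in CM. Among them the mast cell protease Cpa3 averaged 312 ± 199 CPM in CM IR and 50.7 ± 5.31 CPM in WT IR, and 336 ± 243 CPM in CM NIR and 46.7 ± 15.8 CPM in WT NIR. The eosinophil granule gene Prg2 averaged 7.09 ± 6.75 CPM in CM IR and 79.2 ± 16.1 CPM in WT IR, and 1.66 ± 0.727 CPM in CM NIR and 70.4 ± 25.2 CPM in WT NIR, and Epx, Ear1 and the basophil protease Prss34 also had the lower mean in CM. The part of these cells in the levels of the 6 genes was not tested.

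The lists of the cells for which Bank1 and Sdc1 are known gave other values. The summed B-cell markers were at 21.8 to 40.5 CPM in CM IR and 22.4 to 44.7 CPM in CM NIR, against 21.3 to 43.5 CPM over the 6 WT libraries. Of the 14 B-cell genes, 0 to 3 were at 0 in a library, and Ms4a1 and Pax5 did not exceed 0.12 and 0.45 CPM in any library. The summed plasma cell markers were at 652 to 746 CPM in CM IR and 550 to 848 CPM in CM NIR, against 453 to 550 CPM in WT. Nearly all of that sum was Xbp1, a transcription factor also used outside plasma cells, which averaged 622 ± 42.6 CPM in CM IR and 435 ± 45.5 CPM in WT IR, and 644 ± 128 CPM in CM NIR and 404 ± 14.4 CPM in WT NIR (SD, n = 3 each). Mzb1, a defining plasma cell gene, did not exceed 0.38 CPM in any library, and Jchain lay between 0.05 and 3.74 CPM. Prdm1 averaged 9.53 ± 6.05 CPM in CM IR and 4.89 ± 1.92 CPM in WT IR, and 9.74 ± 6.10 CPM in CM NIR and 4.46 ± 2.44 CPM in WT NIR. Irf4 averaged 30.4 CPM in CM IR, 49.5 in WT IR, 30.1 in CM NIR and 31.1 in WT NIR. The mean was higher in CM for 5 of the 9 plasma cell genes in IR and 2 in NIR cells.

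Irradiation was then compared within each genotype. None of the 6 genes passed an adjusted p of 0.05 in CM or in WT by edgeR's quasi-likelihood test with Benjamini-Hochberg adjustment over all genes. With the animal as replicate block 163 genes were called in WT and 0 in CM, and again none of the 6. The main fit has no animal term, and its background was low: 0.00685% of all genes were called in CM and 0.116% in WT. The log2 change of IR over NIR in CM was -0.52 ± 0.57 for Tctex1d1, -0.24 ± 0.50 for Hopx, -0.20 ± 0.63 for Bank1, -0.15 ± 0.32 for Grap, -0.13 ± 0.37 for Sdc1 and -0.07 ± 0.41 for Synpo (SE, adjusted p = 0.99996 for each, edgeR). In WT it was 0.81 ± 0.33 for Grap, with an unadjusted p of 0.0342 and an adjusted p of 1 by edgeR, and between -0.46 ± 0.68 (Bank1) and 0.27 ± 0.43 (Synpo) for the others. Grap was the only one of the 6 below an unadjusted p of 0.05, which 4.05% of all genes were in WT, and none of the 6 was in CM, where 1.62% of all genes were.

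Within animals the IR response was uneven. Grap was 0.68, 0.73 and 0.99 log2 units higher in IR than in NIR cells in WT animals 1, 2 and 3, and it differed by 0.08, 0.02 and -0.64 in CM animals 1, 2 and 3. The 3 CM values lay below the 3 WT values, and the mean difference of the responses, CM minus WT, was -0.98 (exact two-sided permutation p = 0.1, the smallest that 3 against 3 animals allow, and 0.6 adjusted over the 6 genes). For the other 5 genes the CM and WT animals overlapped, with differences of -0.48 to 0.43 and exact permutation p of 0.3 to 0.9. In the fit over all genes the difference of the responses was -0.96 ± 0.46 for Grap (SE, unadjusted p = 0.0632, adjusted p = 0.99999, edgeR), and none of the 6 was called, while 0% of all genes were called and 0.726% had an unadjusted p under 0.05. This comparison, like that of IR with NIR within a genotype, shares its libraries with the one that chose the genes.

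CM animal 3 differed from the other CM animals in this comparison. In CM animal 3 the IR level was 0.456 to 0.642 times the NIR level for the 6 genes, with a median of 0.563, and all 6 were lower in IR, as 50.2% of all genes tested were. In CM animal 1 the median was 1.05 (0.827 to 1.31) and in CM animal 2 it was 1.19 (0.866 to 1.63), and 1 of the 6 genes was lower in IR in each, beside 47.1% and 51.9% of all genes. The 131 other genes called higher in CM NIR had medians of 1.02, 0.981 and 0.654 in CM animals 1, 2 and 3, and 128 of them were lower in IR in CM animal 3. Without the libraries of CM animal 3 the log2 change of IR over NIR in CM was 0.18 for Bank1, 0.07 for Grap, 0.19 for Hopx, 0.11 for Sdc1, 0.22 for Synpo and -0.15 for Tctex1d1. Without these libraries the log2 difference of CM over WT was 1.85 (Grap) to 4.47 (Bank1) in IR cells. In NIR cells it was 2.28 (Sdc1) to 3.83 (Bank1). The genes were chosen on the remaining libraries too, so the sign is no test.

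**Figure D3:**
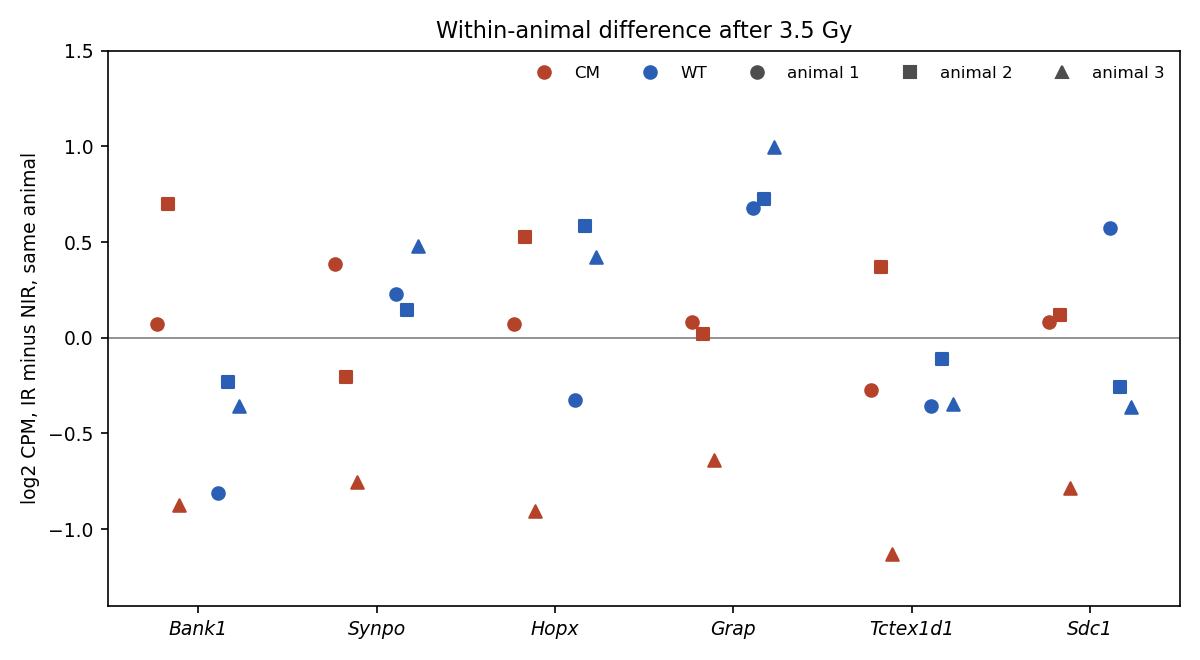
Change of each gene from the NIR to the IR library of the same animal, in log2 CPM, with 1 point per animal, the shape giving the animal number and the colour the genotype, and a line at no change. CM animal 3 lies below 0 for all 6 genes, and for Grap the WT points at 0.68 to 0.99 lie above the CM points.

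The genes whose pattern over the 12 libraries was most like each of the 6 were found by the mean absolute difference of centred log2 CPM among 11441 genes. For Bank1 they were Tpsg1, a mast cell tryptase, at 0.401, Maob, a monoamine oxidase, at 0.401 and Spp1, osteopontin, at 0.419, against a median of 1.93 over all genes searched. For Tctex1d1 they were the surface enzyme Cd38 at 0.288, Lrg1 at 0.2995 and haptoglobin, Hp, at 0.306. For Hopx they were Ptgfrn at 0.194, the neutrophil granule protein lipocalin 2, Lcn2, at 0.198 and Lrg1 at 0.201. Lrg1, a secreted glycoprotein made by neutrophils and liver, was therefore near both.

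Synpo was nearest to the complement gene C4b at 0.278, which has a close paralog, to Cd38 at 0.327 and to Hp at 0.339. Grap was nearest to the zinc transporter Slc39a4 at 0.275, to Pdzk1ip1 at 0.310 and to the growth factor Pdgfb at 0.311. Sdc1 was nearest to Syne2, a nuclear envelope protein, at 0.259, to Peg10 at 0.266 and to Adamtsl4 at 0.345. Among the 6 themselves Hopx and Tctex1d1 were the closest pair at 0.296, and Bank1 and Sdc1 the most distant at 1.06. The 12 libraries share 2 genotypes, so these distances are a description with no test.

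The genes next to each of the 6 on the chromosome were compared between CM and WT with edgeR over all genes. That fit has no animal term, so its estimate of the spread counts the IR and NIR libraries of an animal as independent. The adjusted p of every comparison of CM with WT in this text carries that limit, and its size was not tested. Of the nearest 2 tested genes on each side, 24 in all, those called higher in CM NIR lay beside Hopx, Grap and Tctex1d1. Fam83g, 11.6 kb from Grap, differed by 2.72 ± 0.46 on the log2 scale (SE, adjusted p = 0.0245) in NIR cells and by 2.32 ± 0.45 (adjusted p = 0.0534) in IR cells. Epn2, an endocytic adaptor 73.6 kb on the other side of Grap, differed by 3.18 ± 0.59 in IR cells (adjusted p = 0.0460) and by 3.02 ± 0.57 in NIR cells (adjusted p = 0.0340). Spink2, 90.0 kb from Hopx, differed by 3.29 ± 0.65 in NIR cells (adjusted p = 0.0393) and by 1.38 ± 0.58 in IR cells (adjusted p = 0.373). Gm12709, which overlaps Tctex1d1, differed by 4.57 ± 0.81 in NIR cells (adjusted p = 0.0277) and by 4.03 ± 0.78 in IR cells (adjusted p = 0.0528). Reads of these overlapping genes cannot be told apart. The Gm12709 difference may therefore repeat the one that chose Tctex1d1, and it is not read as a separate result.

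Of all genes, 0.39% were called higher and 0.274% lower in CM IR (0.664% in either direction), and 0.938% higher and 0.685% lower in CM NIR (1.62% in either direction). No tested neighbour of Bank1 or Sdc1 passed in either condition, and Ndst1, beside Synpo, did not pass in NIR cells (0.62 ± 0.13, adjusted p = 0.0506). The levels behind these calls were low. Fam83g averaged 1.72 ± 0.810 CPM in CM IR and 0.343 ± 0.0513 CPM in WT IR, and 1.98 ± 0.411 CPM in CM NIR and 0.301 ± 0.159 CPM in WT NIR (SD, n = 3 each). Spink2 averaged 0.514 ± 0.232 CPM in CM IR and 0.197 ± 0.0559 CPM in WT IR, and 0.721 ± 0.513 CPM in CM NIR and 0.0731 ± 0.0246 CPM in WT NIR. The NIR calls of Spink2 and Epn2 ended when any 1 of the 6 WT libraries, CM NIR animal 1 or CM NIR animal 3 was left out, and that of Gm12709 in the same fits except the one without WT IR animal 1. The Fam83g call ended without WT NIR animal 2 or 3, CM NIR animal 1 or 3, or WT IR animal 3. The IR call of Epn2 ended in 9 of 12 such fits, those without WT NIR animal 2 or 3, CM NIR animal 1 or 3, any WT IR animal, or CM IR animal 1 or 2, and also with library number series as a term (adjusted p = 0.0868, edgeR). The same term ended the NIR call of Spink2 (adjusted p = 0.0613, edgeR). Their signs held, and the highest adjusted p without 1 library was 0.250 (edgeR).

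**Figure D4:**
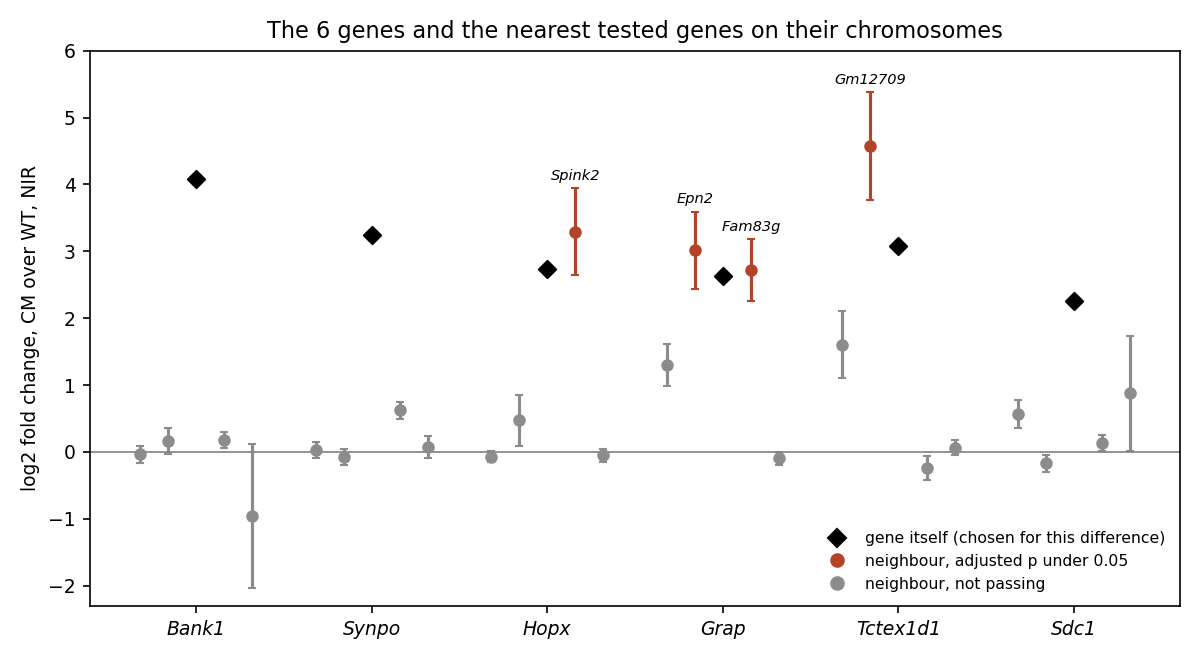
Log2 ratio of CM over WT in NIR cells for each of the 6 genes (diamonds) and for the 2 nearest tested genes on each side (circles with SE from edgeR), in chromosome order and not to distance. Red circles passed an adjusted p of 0.05 and lie beside Hopx (Spink2), Grap (Epn2, Fam83g) and Tctex1d1 (Gm12709). Gm12709 overlaps Tctex1d1, and their reads cannot be told apart.

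Other genes of the pathways the 6 belong to were read from lists. The lists were chosen with earlier results of these data known, so the number of called genes in a list is a description. In the list of B-cell receptor signalling, 0 of 21 tested genes were called between CM and WT in IR or in NIR cells, and the median log2 difference was 0.12 in IR and 0.09 in NIR, beside 0.02 for all genes in both conditions. Blk, a kinase of that pathway, had the smallest p in NIR cells at -5.48 ± 1.49 (adjusted p = 0.104, edgeR), and Itpr3, an inositol trisphosphate receptor, in IR cells at 0.59 ± 0.16 (adjusted p = 0.129, edgeR). In NIR cells the unadjusted edgeR p was 0.00396 for Blk, 0.00405 for Vav1, 0.00503 for Itpr3 and 0.00711 for Itpr2, and their adjusted p was 0.104 to 0.137. The share of all genes called in either direction was 0.664% in IR and 1.62% in NIR cells, so a count of 0 among 21 genes does not set the list apart.

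In the list of GRB2 adaptors and RAS signalling, 1 of 26 genes was called higher and 0 lower in each condition, with a median of 0.17 in IR cells and 0.19 in NIR cells. Of all genes, 0.39% were called higher in IR and 0.938% in NIR cells. The called gene was Lat, a membrane scaffold for GRB2 known from T cells, at 1.85 ± 0.31 in IR cells (adjusted p = 0.0375, edgeR) and 1.78 ± 0.31 in NIR cells (adjusted p = 0.0245). Lat averaged 34.7 ± 10.9 CPM in CM IR and 9.60 ± 1.85 CPM in WT IR, and 42.5 ± 5.08 CPM in CM NIR and 12.4 ± 5.20 CPM in WT NIR. Kit, a receptor that signals through such adaptors, differed by 0.27 ± 0.24 in IR cells and -0.0011 ± 0.24 in NIR cells and was not called.

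In the list of syndecans and heparan sulfate enzymes, 3 of 31 genes were called higher and 0 lower in NIR cells, and 1 was called higher in IR cells, with a median of 0.22 in each. The share of all genes called higher was 0.938% in NIR and 0.39% in IR cells. With the list chosen after earlier results were known, nothing is read from the count. Hs6st2, a heparan sulfate 6-O-sulfotransferase, differed by 1.52 log2 units in IR cells (adjusted p = 0.0375, edgeR) and by 1.53 ± 0.26 in NIR cells (adjusted p = 0.0233). In NIR cells its relative Hs6st1 differed by 0.75 ± 0.14 (adjusted p = 0.0290, edgeR) and Gpc3, a glypican, by 1.69 ± 0.33 (adjusted p = 0.0393). The other syndecans did not pass: Sdc2 averaged 0.453 ± 0.427 CPM in CM IR and 1.17 ± 0.315 CPM in WT IR, and 0.189 ± 0.0466 CPM in CM NIR and 1.06 ± 0.286 CPM in WT NIR (log2 difference -1.37 and adjusted p = 0.343 in IR, -2.48 and 0.0704 in NIR, edgeR). Sdc3 differed by 0.88 ± 0.85 in IR and 0.63 ± 0.85 in NIR cells, and Sdc4 by -0.80 ± 0.89 in IR and -0.96 ± 0.90 in NIR cells.

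In the list of actin crosslinking and stress fibre genes, 1 of 26 genes was called higher and 1 lower in each condition, with a median of 0.09 in IR and 0.06 in NIR cells. Of all genes, 0.39% were called higher and 0.274% lower in IR cells, and 0.938% and 0.685% in NIR cells. Magi1, a junction scaffold that binds synaptopodin, was higher in CM by 2.97 ± 0.46 in IR cells (adjusted p = 0.0347, edgeR) and 2.79 ± 0.45 in NIR cells (adjusted p = 0.0201). Its levels were low, at 0.769 ± 0.283 CPM in CM IR and 0.0974 ± 0.0192 CPM in WT IR. In NIR cells they were 1.25 ± 0.195 CPM in CM and 0.181 ± 0.110 CPM in WT. Actn1, the crosslinker alpha-actinin 1, was lower in CM, with 51.3 ± 12.4 CPM in CM IR and 118 ± 6.09 CPM in WT IR, and 34.9 ± 7.64 CPM in CM NIR and 85.5 ± 1.60 CPM in WT NIR. Its log2 difference was -1.20 ± 0.18 in IR (adjusted p = 0.0347, edgeR) and -1.29 ± 0.18 in NIR (adjusted p = 0.0144).

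In the list of dynein chains, 0 of 16 genes were called in either condition, and the smallest p belonged to Tctex1d2 in IR cells (-0.45 ± 0.18, adjusted p = 0.349, edgeR) and to Dync2h1 in NIR cells (-0.53 ± 0.20, adjusted p = 0.227). Of all genes, 0.664% in IR and 1.62% in NIR cells were called in either direction, and 0.39% and 0.938% were called higher. In the list of HOPX partners and serum response factor genes, 1 of 18 genes was called higher and 0 lower in each condition. That gene was Cnn3, an actin-binding calponin, at 1.28 ± 0.18 in IR cells (adjusted p = 0.0246, edgeR) and 1.51 ± 0.18 in NIR cells (adjusted p = 0.00932). Cnn3 averaged 38.7 ± 10.1 CPM in CM IR and 15.9 ± 0.366 CPM in WT IR, and 48.6 ± 4.14 CPM in CM NIR and 17.1 ± 1.85 CPM in WT NIR. Srf itself differed by 0.16 ± 0.16 in IR and 0.24 ± 0.16 in NIR cells and did not pass.

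The list calls rested on few libraries. Without CM NIR animal 1, and likewise without CM NIR animal 3, every NIR call named from the pathway lists (Lat, Gpc3, Hs6st1, Hs6st2, Actn1, Magi1 and Cnn3) ended, and that of Cnn3 ended in these 2 of 12 fits only (highest adjusted p = 0.0594, edgeR). The NIR calls of Actn1 and Magi1 ended also without WT NIR animal 2 or 3, that of Lat also without these or WT IR animal 3, and that of Hs6st2 also without any WT NIR animal or WT IR animal 3. The NIR calls of Gpc3 and Hs6st1 ended also without any 1 of the 6 WT libraries (highest adjusted p = 0.168, edgeR, for Gpc3). The IR calls of Lat, Hs6st2, Actn1 and Magi1 ended in 9 of 12 fits, those without WT NIR animal 2 or 3, CM NIR animal 1 or 3, any WT IR animal, or CM IR animal 1 or 2. That of Cnn3 ended in 7 of 12, without WT NIR animal 2 or 3, CM NIR animal 3, any WT IR animal or CM IR animal 1. With library number series as a term these 5 IR calls ended as well (adjusted p = 0.0565 to 0.0572, edgeR), as did the NIR call of Gpc3 (adjusted p = 0.0625), and no sign changed in any of these fits.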

How the data were processed

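Per the labels' protocols, an AllPrep kit gave the RNA, and KAPA RNA HyperPrep with RiboErase gave stranded libraries. The submitters' processing notes name build mm10 and the programs HTSeq 0.6.1p1, TopHat2 and bcl2fastq 2.18.0.12; the role of each, the strand setting and the annotation were not given in the sources used here. The deposited count table, whole numbers per gene and library, entered all main fits. The deposited RPKM table served for levels per length and in alternatives. Coordinates are those of the deposited tables.

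Genes were filtered with filterByExpr (minimum count 10), scaled by TMM and fitted with edgeR 4.0.16 (R 4.3.3) over all 12 libraries, with 1 mean per group and Benjamini-Hochberg adjustment over 14599 genes. The fit was tested on simulated data. DESeq2 1.42.0 and limma 3.58.1 served as alternatives, as did a fit without the filter, with other scaling, with library number series, with the animal as replicate block and without each library. The 6 genes, lists and markers were chosen with earlier results of these data known. Named beside the 6 were the 3 genes of most similar pattern (mean of at least 1 CPM), the 2 nearest tested genes per side, and up to 3 called genes per list or the gene of smallest p; other genes named for their role were chosen after their values were seen.

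IR and NIR libraries of an animal are paired by the labels' animal number; their deviations from group means correlated at 0.79, 0.84 and 0.13 in CM and 0.67, 0.50 and 0.41 in WT. Library names mark WT animals 1 and 3 as C and CM animals as CHW, which the labels do not explain. No pair of libraries of the same group agreed within sampling noise (chi-square divided by its degrees of freedom at least 14.0). Pairs across groups were not compared in this way. Counting error is small at this depth except for genes below 1 CPM.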

Additional observations from a re-analysis of the deposited data

How the results depend on the processing

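The CM over WT differences of the 6 genes kept their sign in all 240 values, which come from 20 alternative fits. The genes were chosen on these libraries for that difference, so nothing is read from its sign. None of the 6 passed in any of 378 values of the IR comparisons, which come from 21 alternative fits. On log2(RPKM + 1) low genes are compressed: Synpo differed by 0.62 in IR and 0.69 in NIR, and Bank1 by 1.64 and 1.66; of the other named genes Magi1 differed by 0.09 and Epn2 by 0.15 in IR. None of 440 values for those other genes reversed. With limma-voom the NIR calls of Spink2 (adjusted p = 0.0952) and Gm12709 (0.107) and the IR call of Epn2 (0.0601) ended. By limma on log2(RPKM + 0.1) the NIR call of Spink2 (0.0567) and the IR calls of Magi1 (0.0511) and Epn2 (0.108) ended. On log2(RPKM + 1) these ended (0.131, 0.122 and 0.244 by limma), as did the NIR calls of Epn2 (0.0557) and Gm12709 (0.105). The other calls of named genes stayed in these fits. Leaving out both libraries of CM animal 3 ended the NIR calls of Lat (adjusted p = 0.0537, edgeR), Epn2 (0.0582), Gpc3 (0.0721), Gm12709 (0.0829) and Spink2 (0.125). In that fit the NIR calls of Cnn3, Hs6st2, Hs6st1, Actn1, Fam83g and Magi1 stayed (adjusted p = 0.00162 to 0.0366, edgeR). The IR calls all stayed: Cnn3 (adjusted p = 0.00173, edgeR), Actn1 and Hs6st2 (0.00820 each), Magi1 (0.0193), Lat (0.0225) and Epn2 (0.0306). With the animal as replicate block no call of the 6 changed. Grap then differed by 0.81 ± 0.17 (IR over NIR in WT, unadjusted p = 0.00259, adjusted p = 0.101, edgeR). Its response, CM minus WT, differed by -0.99 ± 0.24 in that fit (unadjusted p = 0.00471, adjusted p = 0.99995, edgeR).

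Signs of the IR responses were not stable. Without CM animal 3 the IR change in CM turned positive for Bank1 (0.18), Synpo (0.22), Hopx (0.19), Grap (0.066) and Sdc1 (0.11), and the difference of responses was 0.12 for Tctex1d1 and 0.22 for Sdc1; on log2(RPKM + 1) that of Bank1 was -0.018. Leaving out 1 library at a time gave IR changes in CM of -0.90 to 0.17 (Bank1), -0.72 to 0.19 (Synpo), -0.69 to 0.12 (Hopx), -0.46 to 0.0065 (Grap) and -0.35 to 0.12 (Sdc1). In WT it gave -0.020 to 0.45 (Hopx) and -0.42 to 0.29 (Sdc1), and for the difference of responses -0.43 to 0.63 (Bank1), -0.83 to 0.11 (Tctex1d1) and -0.42 to 0.29 (Sdc1). The cause was not tested.

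Counts of called genes depended on the setting. IR over NIR in CM gave 1 gene, against 18 by DESeq2, 0 without CM animal 3, 0 with the replicate block and 0 to 3 without single libraries. IR over NIR in WT gave 17, against 140 by DESeq2, 31 by limma-voom, 1 without CM animal 3, 40 on log2(RPKM + 0.1), 52 on log2(RPKM + 1), 163 with the replicate block and 1 to 49 without single libraries. The difference of responses gave 0, against 1 on log2(RPKM + 1) and 0 without any single library, with 106 genes at an unadjusted p under 0.05 by edgeR. CM over WT in IR gave 97 (57 higher, 40 lower), against 652 by DESeq2, 156 by limma-voom (69 higher, 87 lower), 204 without CM animal 3, 14 with the library number series, 162 on log2(RPKM + 1) (43 higher, 119 lower) and 3 to 270 without single libraries; log2(RPKM + 0.1) gave 53 higher and 77 lower. CM over WT in NIR gave 237 (137 higher, 100 lower), against 922 by DESeq2, 147 without CM animal 3 and 4 to 914 without single libraries. The 914 came without CM NIR animal 2 and the 4 without CM NIR animal 3, so this count depended strongly on which CM animal was left out. No fit left out both libraries of CM animal 2. The split was 115 to 125 on log2(RPKM + 0.1) and 93 to 120 on log2(RPKM + 1).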
